A study of Homo sapiens with 9 samples.

Results

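The genes described here make, take up and move cholesterol, or control the sterol regulatory element-binding proteins (SREBPs). They are 31 genes from a chosen list, out of 36753 genes with a value in all 9 libraries, and all 31 were found by matching Ensembl identifiers to symbols. The list holds 19 enzymes of cholesterol synthesis, 1 gene of receptor degradation (MYLIP), 7 genes of SREBP control and 4 genes of sterol transport, and it is not a complete inventory of the pathway. The libraries came from PANC-1, a human pancreatic carcinoma cell line, collected 48 hours after transfection with short interfering RNA (siRNA). There were 3 control, 3 siSIRT6 and 3 siKDM5C libraries, and the control columns are headed siNC. SIRT6 is a nuclear NAD-dependent deacylase and KDM5C a demethylase of histone H3. How many siRNAs were used and their sequences were not given in the sources used here. An effect of the loss of the target and an effect of a particular siRNA on other transcripts cannot be told apart.

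Cells build cholesterol from acetyl-CoA through mevalonate and isoprenoid units to squalene, close squalene into the first sterol, lanosterol, and then trim, reduce and shift its bonds to give cholesterol. The SREBPs are membrane-bound transcription factors that SCAP carries from the endoplasmic reticulum to the Golgi when sterols are low. There the proteases encoded by MBTPS1 and MBTPS2 release the active factor, which drives genes of sterol synthesis and uptake, while INSIG proteins hold SCAP back when sterols are plentiful.

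Expression was given as FPKM (fragments per kilobase of gene, relative to the depth of the library), and levels of different genes are compared here only on this per-length scale. The libraries held 18201413 to 26910441 reads in genes, as recovered from the FPKM steps, with siSIRT6 replicate 3 the deepest. SIRT6 was 0.487 to 0.795 FPKM in the siSIRT6 libraries against 5.17 to 7.17 in the control libraries, and KDM5C was 3.31 to 3.89 FPKM in the siKDM5C libraries against 18.0 to 18.8. The keratin genes KRT8, KRT18 and KRT19 were at 138 to 619 FPKM in all 9 libraries, while EPCAM reached only 3.52 and CDH1 only 0.630 FPKM. The 6 epithelial markers summed to 1091 to 1143 FPKM in the control, 1398 to 1513 in the siSIRT6 and 696 to 856 in the siKDM5C libraries, and the summed enzymes given further on had that order too. That marker sum is nearly all KRT8, KRT18 and KRT19, and only KRT8 and KRT18 had its order in their group means. In control, siSIRT6 and siKDM5C, mean KRT19 was 148, 302 and 152 FPKM and mean EPCAM 0.988, 1.56 and 2.93. KRT7 and CDH1 had their highest mean in the control. The 4 leukocyte markers measured summed to 41.3 to 55.3, 34.6 to 37.7 and 70.7 to 91.8 FPKM, nearly all of it CD68, with PTPRC at no more than 0.0120 FPKM. The part of these differences in the results was not tested. The share of reads from mitochondrial DNA was 8.71% ± 0.914 (SD, n = 3) in the control, 6.72% ± 0.203 in the siSIRT6 and 6.26% ± 0.541 in the siKDM5C libraries, and its part in the results was not tested either. The labels do not state that replicates were grown as separate cultures, so p-values here reflect a spread between samples that may be technical. In bulk samples, fewer cells expressing a gene and less RNA per cell cannot be told apart.

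Each member was tested with limma on log2(FPKM + 1). Two-sided p-values were adjusted by the Benjamini-Hochberg method across the 16135 genes in the fit, and 0.05 was the threshold. Log2 differences are on that scale and are smaller than the ratio of FPKM values for genes at low levels, while folds are ratios of mean FPKM. All 31 members passed the filter of at least 1 FPKM in at least 3 libraries. Since 50.8% of all tested genes differed between siSIRT6 and control, 51.5% between siKDM5C and control and 39.9% between siSIRT6 and siKDM5C, each count of members is read beside those shares. The siSIRT6 libraries lay wholly above the control libraries for 18 members and wholly below for 6, against 30.3% and 35.2% of all genes (65.5% in either direction). For siKDM5C these counts were 5 and 20, against 28.0% and 27.7% (55.7%), and for siSIRT6 against siKDM5C they were 24 and 4, against 23.9% and 27.8% (51.7%).

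After SIRT6 knockdown 12 of the 31 members rose, 3 fell and 16 did not pass, against 23.9% of all tested genes higher and 26.9% lower. The median log2 difference was 0.20 over the members and -0.05 over all genes tested. After KDM5C knockdown 5 members rose, 20 fell and 6 did not pass, against 25.6% higher and 25.9% lower over all genes. The median was -0.30 over the members and -0.02 over all genes. Compared directly, 21 members were higher in siSIRT6 than in siKDM5C, 3 were lower and 7 did not pass, against 18.6% and 21.3% of all genes, and the median was 0.41 against -0.02. The knockdowns share their control libraries, so each comparison is given with its own values. The direct difference is taken between the siSIRT6 and siKDM5C libraries alone, while the spread it is tested against was estimated over all 9 libraries, controls included. Each comparison with control was tested against that same spread. With only the groups compared in the fit, 22 members in place of 15 passed for siSIRT6 against control. For siKDM5C against control 21 in place of 25 passed, and between the knockdowns 22 in place of 24. The counts over all 16135 genes moved in the same direction. In siSIRT6 against control 4244 genes were higher and 4936 lower in that fit, in place of 3861 and 4333. For siKDM5C against control these were 3573 and 3492 in place of 4134 and 4174. Between the knockdowns they were 2678 and 3064 in place of 3009 and 3433.

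Most of the members that passed were enzymes, as were 19 of the 31 members. Summed, the 19 enzymes held 426 ± 5.32 FPKM (SD, n = 3) in the control, 521 ± 4.91 in the siSIRT6 and 309 ± 9.01 in the siKDM5C libraries. The 3 groups did not overlap, with 420, 428 and 430 FPKM in the control libraries, 515, 523 and 525 in the siSIRT6 libraries and 303, 304 and 319 in the siKDM5C libraries. After SIRT6 knockdown 9 of 19 enzymes rose, 1 fell (LBR) and 9 did not pass, with a median log2 difference of 0.24. The enzymes called, 52.6%, were near the 50.8% of all tested genes, but 47.4% rose and 5.26% fell, against 23.9% and 26.9%. After KDM5C knockdown 1 rose (PMVK), 14 fell and 4 did not pass, with a median of -0.41. That was 5.26% rising and 73.7% falling, against 25.6% and 25.9% of all tested genes. Between the knockdowns 16 were higher in siSIRT6, 1 was lower (LBR) and 2 did not pass (PMVK and LSS), with a median of 0.53. That was 84.2% higher and 5.26% lower, against 18.6% and 21.3% of all tested genes.

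**Figure D1:**
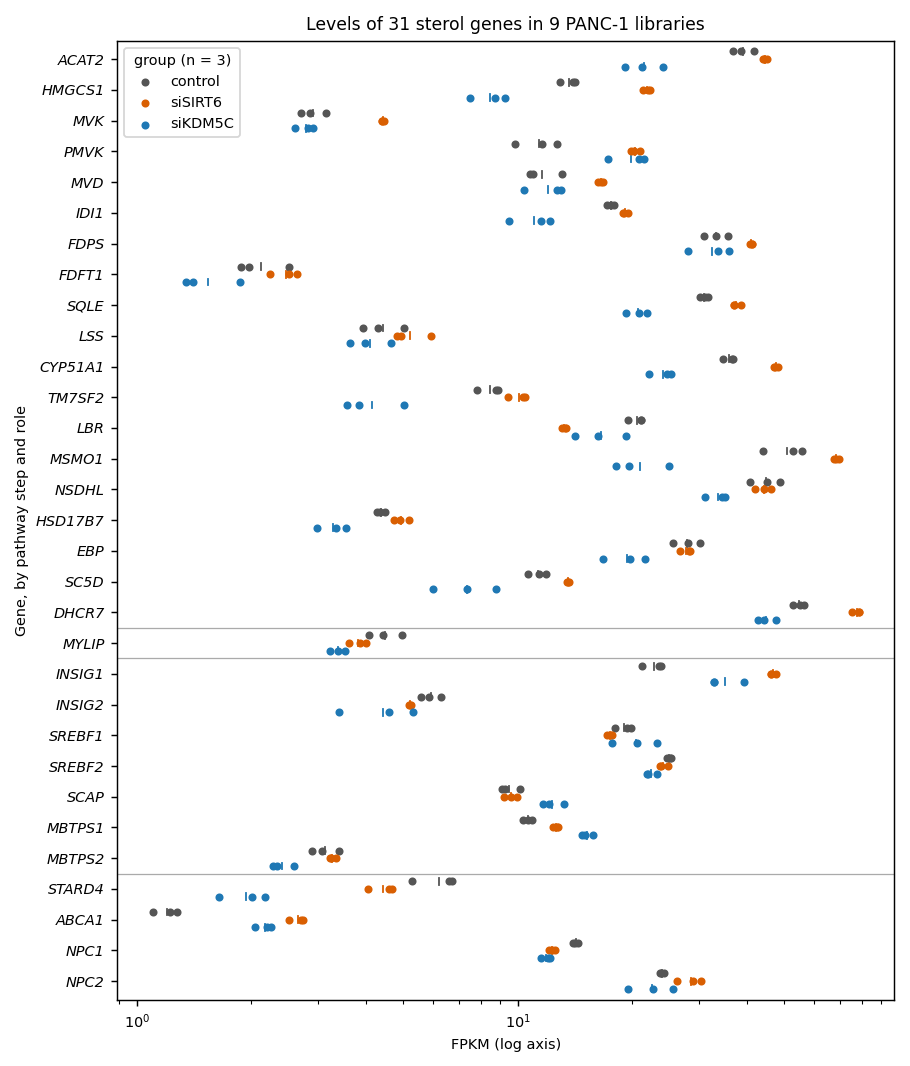
Level in FPKM (log axis) of each of the 31 members in each of the 9 libraries, with enzymes in pathway order and then the other roles. Points are libraries, short vertical lines are group means and colours are groups. MSMO1, TM7SF2 and STARD4 show siKDM5C points well under the control points, while the 3 INSIG1 siSIRT6 points sit above all others of that gene.

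In the control libraries the enzymes spanned from DHCR7 at 54.9 ± 1.77 FPKM, MSMO1 at 50.9 ± 6.05, NSDHL at 44.9 ± 4.08 and ACAT2 at 39.0 ± 2.55 down to HSD17B7 at 4.37 ± 0.106, MVK at 2.90 ± 0.232 and FDFT1 at 2.12 ± 0.338 (SD, n = 3 each). Neighbours in this order often did not differ beyond their spread: the control ranges of DHCR7 and MSMO1 overlapped, and so did those of MSMO1 and NSDHL and those of LSS (4.42 ± 0.558) and HSD17B7. The 3 highest mean levels belonged to enzymes of the later sterol steps, and FDFT1, which encodes squalene synthase and commits isoprenoids to sterols, was the lowest of the 19 enzymes.

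Promoter sequence is shown for 5 members that the results turn on: 2 enzymes and a sterol carrier with large differences, the INSIG gene that rose in both knockdowns, and the gene of SREBP-2. The stretches run 5′ to 3′ on the gene's strand and end before the earliest annotated start. They come from RefSeq (GRCh38.p14). Capitals mark CCAAT, the core that NF-Y binds, on either strand (ATTGG is CCAAT on the opposite strand), and TCACCCCAC, an SREBP-binding sterol regulatory element of this spelling.
HMGCS1 (chr5:43313513-43313662, minus strand): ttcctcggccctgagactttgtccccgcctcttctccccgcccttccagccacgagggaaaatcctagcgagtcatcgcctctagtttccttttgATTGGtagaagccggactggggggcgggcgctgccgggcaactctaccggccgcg
MSMO1 (chr4:165327419-165327622, plus strand): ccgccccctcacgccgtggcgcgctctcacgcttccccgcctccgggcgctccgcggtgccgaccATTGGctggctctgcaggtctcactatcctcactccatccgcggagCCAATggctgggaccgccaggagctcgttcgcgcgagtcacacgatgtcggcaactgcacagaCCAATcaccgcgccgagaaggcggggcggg
STARD4 (chr5:111512591-111512785, minus strand): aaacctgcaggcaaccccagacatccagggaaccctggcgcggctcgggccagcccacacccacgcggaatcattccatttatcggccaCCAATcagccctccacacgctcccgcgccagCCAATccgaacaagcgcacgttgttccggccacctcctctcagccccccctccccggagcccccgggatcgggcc
INSIG1 (chr7:155297628-155297775, plus strand): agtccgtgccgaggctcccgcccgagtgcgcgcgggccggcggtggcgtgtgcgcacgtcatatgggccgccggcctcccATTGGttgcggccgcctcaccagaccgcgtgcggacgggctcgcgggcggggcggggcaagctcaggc
SREBF2 (chr22:41832855-41833078, plus strand): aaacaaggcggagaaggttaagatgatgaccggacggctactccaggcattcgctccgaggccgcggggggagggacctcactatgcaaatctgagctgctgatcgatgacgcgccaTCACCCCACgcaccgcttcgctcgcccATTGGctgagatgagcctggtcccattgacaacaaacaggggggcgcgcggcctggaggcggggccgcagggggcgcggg
HMGCS1 and INSIG1 each had 1 CCAAT in the stretch shown, STARD4 had 2 and MSMO1 had 3. SREBF2 had 1 CCAAT and the only TCACCCCAC among the members with a window; an exon of the antisense gene SREBF2-AS1 covers that stretch.

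Over the 300 bases around each annotated start (250 before, 50 after), RefSeq windows were found for 28 of 31 members, all but ACAT2, FDFT1 and SQLE. CCAAT on either strand was in 18 of 28 members (64.3%) and in 39.7% of all 27305 genes with a window. GGGCGG, the SP1-type GC box, was in 24 of 28 (85.7%) against 48.3%. CACGTG, an E-box that reads the same on both strands, was in 5 of 28 (17.9%) against 8.78%, and the looser CANNTG, which contains it, was in 19 of 28 (67.9%) against 73.1%. TCACCCCAC was in 1 of 28 (3.57%) against 0.535%, and TCACNCCAC, which contains it, also in 1 of 28, against 1.39%. Of the 17 members with a window that fell after KDM5C knockdown, 12 had CCAAT, as had 6 of the 11 that did not fall. Of the 11 with a window that rose after SIRT6 knockdown, 7 had it, as had 11 of the 17 that did not rise. CACGTG was in 1 of the 17 that fell after KDM5C knockdown and 4 of the 11 that did not, and GGGCGG in 14 of 17 and 10 of 11. These are matches of letters in a window and were not compared by a test. The 27305 genes were not limited to those expressed here, whereas every member passed the expression filter, so the shares come from unlike sets.

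The first 8 enzymes lead from acetyl-CoA to squalene. Of these, 5 rose and 3 did not pass after SIRT6 knockdown, while 1 rose, 4 fell and 3 did not pass after KDM5C knockdown. Over all tested genes 23.9% rose and 26.9% fell after SIRT6 knockdown, and 25.6% rose and 25.9% fell after KDM5C knockdown. ACAT2 (ENSG00000120437, chr6:159760328-159779055, plus strand) encodes the cytosolic thiolase that joins acetyl-CoA units. Its level was 38.5, 36.8 and 41.8 FPKM in the control libraries, 45.2, 44.2 and 44.2 in the siSIRT6 libraries and 24.2, 19.2 and 21.3 in the siKDM5C libraries. The siKDM5C libraries were all below and the siSIRT6 libraries all above the controls. ACAT2 fell to 0.551 times the control level after KDM5C knockdown (log2 difference -0.83, SE 0.08, adjusted p = 6.92e-05). After SIRT6 knockdown it was 0.19 higher on the log2 scale and did not pass (adjusted p = 0.0895), but passed without siKDM5C replicate 1 (adjusted p = 0.0395) or replicate 2 (0.0397), and its adjusted p over the alternatives ran from 0.0222 to 0.24. It passed too with only the groups compared (0.0222) and on recovered reads (0.0327). Opposite-strand genes share 33.9% (SOD2-OT1) and 9.24% (TCP1) of its exon bases, and no source used here gives the strand counted, so the ACAT2 values are uncertain.

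HMGCS1 (ENSG00000112972, chr5:43289395-43313512, minus strand) encodes the HMG-CoA synthase of the cytosol and is a classical SREBP target. Its level was 14.1, 14.0 and 12.9 FPKM in the control libraries, 21.3, 22.3 and 21.9 after SIRT6 knockdown and 8.70, 9.24 and 7.52 after KDM5C knockdown. The 3 groups were separate, with the control libraries in the middle. It rose 1.60-fold after SIRT6 knockdown (log2 difference 0.64, SE 0.07, adjusted p = 1.51e-04) and fell to 0.620 times control after KDM5C knockdown (-0.63, SE 0.07, adjusted p = 1.51e-04). Between the knockdowns the level differed 2.57-fold (1.27, adjusted p = 8.54e-06). An antisense gene, ENSG00000261604, shares 15.0% of its exon bases and was at 3.48 to 12.7 FPKM, so with the strand unknown the HMGCS1 values are uncertain.

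The 3 enzymes that turn mevalonate into isopentenyl diphosphate were not among the 14 that fell after KDM5C knockdown. PMVK (ENSG00000163344, chr1:154924734-154936991, minus strand), phosphomevalonate kinase, was 11.6, 9.84 and 12.7 FPKM in the control libraries, 20.2, 19.8 and 21.0 in the siSIRT6 libraries and 20.9, 17.3 and 21.5 in the siKDM5C libraries. All 6 knockdown libraries were above all 3 controls. PMVK rose 1.79-fold after SIRT6 knockdown (0.79, SE 0.10, adjusted p = 3.15e-04) and 1.75-fold after KDM5C knockdown (0.76, SE 0.10, adjusted p = 4.09e-04). No other of the 19 enzymes rose after KDM5C knockdown. The difference between the knockdowns was 0.04 on the log2 scale, with a 95% interval from -0.20 to 0.27 (adjusted p = 0.798).

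MVK, mevalonate kinase, was 2.69 to 3.15 FPKM in the control, 4.40 to 4.47 in the siSIRT6 and 2.61 to 2.90 in the siKDM5C libraries. It rose 1.53-fold after SIRT6 knockdown (0.48, adjusted p = 2.62e-04), and its siKDM5C and control libraries overlapped (-0.05, adjusted p = 0.556). MVD, the decarboxylase of the step after PMVK, was 10.8 to 13.1 FPKM in the control, 16.3 to 16.8 in the siSIRT6 and 10.4 to 13.0 in the siKDM5C libraries. It rose 1.43-fold after SIRT6 knockdown (0.48, adjusted p = 0.00296), with siKDM5C again overlapping the control (0.05, adjusted p = 0.713). Both were higher in siSIRT6 than in siKDM5C, by 0.53 (adjusted p = 2.60e-04) for MVK and 0.44 (adjusted p = 0.00670) for MVD.

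IDI1, the isomerase that makes the starter unit of isoprenoid chains, was 17.2 to 18.0 FPKM in the control, 18.9 to 19.5 in the siSIRT6 and 9.47 to 12.2 in the siKDM5C libraries. IDI1 fell to 0.631 times control after KDM5C knockdown (-0.63, adjusted p = 3.04e-04). After SIRT6 knockdown the difference was 0.12 (adjusted p = 0.247), and it passed without siKDM5C replicate 3 (0.0366). The antisense gene IDI2-AS1 shares 14.8% of its exon bases at 2.99 to 5.64 FPKM, so the IDI1 values are uncertain too. FDPS, farnesyl diphosphate synthase, was 30.9, 33.1 and 35.7 FPKM in the control libraries, 41.2, 40.8 and 41.1 in the siSIRT6 libraries and 35.8, 28.0 and 33.6 in the siKDM5C libraries. All siSIRT6 libraries were above the controls, and the siKDM5C libraries overlapped them. It rose 1.23-fold after SIRT6 knockdown (0.30, adjusted p = 0.0222) and did not pass after KDM5C knockdown (-0.04, adjusted p = 0.748). Its rise no longer passed without control replicate 1 (adjusted p = 0.0785) or 2 (0.0573), nor without siSIRT6 replicate 1 (0.0597), 2 (0.0560) or 3 (0.0600), within a range of 0.00366 to 0.0785 over the alternatives. FDPS was higher in siSIRT6 than in siKDM5C by 0.34 (adjusted p = 0.0171), a call lost without siSIRT6 replicate 1 (0.0509) or 3 (0.0513). RUSC1-AS1 on the opposite strand shares 18.6% of its exon bases at 21.9 to 31.6 FPKM, so the FDPS values are uncertain.

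FDFT1, squalene synthase, was 1.88, 1.97 and 2.51 FPKM in the control libraries, 2.24, 2.63 and 2.51 in the siSIRT6 libraries and 1.86, 1.40 and 1.35 in the siKDM5C libraries. The siKDM5C libraries were below the controls by a narrow gap, and siSIRT6 overlapped the control. Its difference after KDM5C knockdown was -0.30 (adjusted p = 0.0424), but 12 of the 18 alternatives that tested it lost that call, and on recovered reads it was -0.45. Among them were the fits without control replicate 2 (0.0624) or 3 (0.130), without siSIRT6 replicate 1 (0.0527), 2 (0.0573) or 3 (0.0615), and without siKDM5C replicate 2 (0.105) or 3 (0.121). The difference between the knockdowns was 0.45 (adjusted p = 0.00954), and 0.72 on recovered reads.

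The other 11 enzymes take squalene to cholesterol. Of these, 4 rose, 1 fell and 6 did not pass after SIRT6 knockdown, and 10 fell and 1 (LSS) did not pass after KDM5C knockdown. Of all tested genes 23.9% rose and 26.9% fell in the first, and 25.6% rose and 25.9% fell in the second. Between the knockdowns 9 were higher in siSIRT6, where 18.6% of all tested genes were higher. SQLE (ENSG00000104549), the epoxidase that adds oxygen to squalene, was 31.5, 31.03 and 30.1 FPKM in the control libraries, 37.0, 38.5 and 36.9 in the siSIRT6 libraries and 20.9, 21.8 and 19.2 in the siKDM5C libraries. The groups were separate and the controls lay between the knockdowns. SQLE rose 1.21-fold after SIRT6 knockdown (0.27, SE 0.05, adjusted p = 0.00352) and fell to 0.668 times control after KDM5C knockdown (-0.56, SE 0.05, adjusted p = 6.40e-05). LSS, which closes the ring to lanosterol, was the exception, at 3.93 to 5.03 FPKM in the control, 4.82 to 5.91 in the siSIRT6 and 3.63 to 4.66 in the siKDM5C libraries. Its differences were 0.20 (adjusted p = 0.149) and -0.09 (adjusted p = 0.508), and the first passed with the replicate number as a block (0.0129). The direct difference of 0.29 (adjusted p = 0.0590) passed in 6 alternatives, among them those without siKDM5C replicate 2 (0.0271) and with that block (0.00436).

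CYP51A1 encodes the cytochrome P450 that removes a methyl group from lanosterol. It was 34.6 to 36.8 FPKM in the control, 47.1 to 48.1 in the siSIRT6 and 22.1 to 25.3 in the siKDM5C libraries, with no overlap between groups. It rose 1.32-fold after SIRT6 knockdown (0.39, adjusted p = 6.86e-04) and fell to 0.668 times control after KDM5C knockdown (-0.56, adjusted p = 8.92e-05). These values are uncertain, since a readthrough gene on the same strand, ENSG00000285772, shares 79.4% of its exon bases and was at 18.0 to 39.8 FPKM.

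The next step, the reduction of a sterol double bond, can be made by either of 2 related enzymes, TM7SF2 of the endoplasmic reticulum and LBR, a protein of the inner nuclear membrane that also binds lamin B and heterochromatin. TM7SF2 (ENSG00000149809, chr11:65111845-65116384, plus strand) was 8.77, 7.82 and 8.87 FPKM in the control libraries, 9.46, 10.5 and 10.4 in the siSIRT6 libraries and 3.84, 3.57 and 5.03 in the siKDM5C libraries. All siKDM5C libraries were well below the controls, and the siSIRT6 libraries were just above. TM7SF2 fell to 0.489 times control after KDM5C knockdown (-0.89, SE 0.10, adjusted p = 1.69e-04). After SIRT6 knockdown its difference of 0.23 did not pass (adjusted p = 0.0982), but passed without siKDM5C replicate 3 (0.0194).

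LBR (ENSG00000143815, chr1:225401502-225428925, minus strand) was 21.1, 21.1 and 19.4 FPKM in the control libraries, 13.0, 13.4 and 13.3 in the siSIRT6 libraries and 16.3, 19.3 and 14.1 in the siKDM5C libraries. It was lower in both knockdowns, with siSIRT6 below siKDM5C. It fell to 0.646 times control after SIRT6 knockdown (-0.59, SE 0.10, adjusted p = 0.00109). Its fall after KDM5C knockdown was smaller (-0.30, adjusted p = 0.0275), and that call was lost without control replicate 1 (0.0785) or 2 (0.0787) and without siKDM5C replicate 1 (0.0654) or 3 (0.0589, difference -0.20). It was -0.20 too, and passed (adjusted p = 0.00835), with the GC and length trend taken out. The direct difference of -0.29 (adjusted p = 0.0415) was lost in 10 of 19 alternatives. These included every fit without a siSIRT6 library (0.107, 0.0915 and 0.0938 without replicates 1, 2 and 3), the fits without control replicate 1 (0.0593) or 2 (0.0583), and those without siKDM5C replicate 1 (0.0808) or 2 (0.0660, with the difference at -0.18). The ratio of TM7SF2 to LBR in FPKM was 0.414 ± 0.0431 (SD, n = 3) in the control, 0.760 ± 0.0306 in the siSIRT6 and 0.259 ± 0.0877 in the siKDM5C libraries, and the 3 groups did not overlap. It is a descriptive ratio and had no test of its own.

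MSMO1 (ENSG00000052802, chr4:165327623-165343160, plus strand), the methylsterol oxidase, had the largest direct difference of the 31 members. It was 52.8, 55.7 and 44.1 FPKM in the control libraries, 67.8, 69.9 and 68.4 in the siSIRT6 libraries and 19.6, 25.0 and 18.2 in the siKDM5C libraries. The groups were separate, and control replicate 3 was the lowest of its group. MSMO1 fell to 0.411 times control after KDM5C knockdown (-1.25, SE 0.12, adjusted p = 6.09e-05) and rose 1.35-fold after SIRT6 knockdown (0.43, SE 0.12, adjusted p = 0.0160). Without control replicate 3 that rise no longer passed (0.34, adjusted p = 0.0501). The level in siSIRT6 was 3.29 times that in siKDM5C (1.68, adjusted p = 2.34e-05).

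NSDHL, HSD17B7, EBP and SC5D carry out the demethylation, ketone reduction, isomerisation and desaturation that follow. All 4 fell after KDM5C knockdown and none passed after SIRT6 knockdown. NSDHL went from 44.9 ± 4.08 to 33.5 ± 2.13 FPKM (-0.41, adjusted p = 0.00254) and EBP from 27.9 ± 2.25 to 19.4 ± 2.41 (-0.51, adjusted p = 0.00206). HSD17B7 went from 4.37 ± 0.106 to 3.29 ± 0.285 (-0.33, adjusted p = 0.00238), with its pseudogene HSD17B7P2 at 0.591 to 1.51 FPKM, and SC5D from 11.3 ± 0.620 to 7.39 ± 1.40 (-0.57, adjusted p = 0.00255). After SIRT6 knockdown NSDHL was at 44.2 ± 2.10 and EBP at 27.7 ± 0.923 FPKM, with log2 intervals from -0.20 to 0.16 and from -0.22 to 0.21. HSD17B7 (0.15, adjusted p = 0.0755) and SC5D (0.24, adjusted p = 0.0896) did not pass, but did without siKDM5C replicate 2 (0.0492 and 0.0234) or 3 (0.0348 and 0.0179).

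DHCR7 (ENSG00000172893, chr11:71428193-71452868, minus strand), the reductase of 7-dehydrocholesterol that ends 1 branch of the pathway, was the highest of the enzymes in the control. Its level was 55.3, 52.9 and 56.4 FPKM in the control libraries, 78.8, 75.6 and 78.6 in the siSIRT6 libraries and 44.3, 42.7 and 47.6 in the siKDM5C libraries. The 3 groups were separate. It rose 1.42-fold after SIRT6 knockdown (0.49, SE 0.05, adjusted p = 1.27e-04) and fell to 0.818 times control after KDM5C knockdown (-0.29, SE 0.05, adjusted p = 0.00248). In all, 5 members rose in the first and fell in the second: HMGCS1, SQLE, CYP51A1, MSMO1 and DHCR7. The direct comparison passed for each of them. The share of all tested genes with that pair of calls was not counted.

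**Figure D2:**
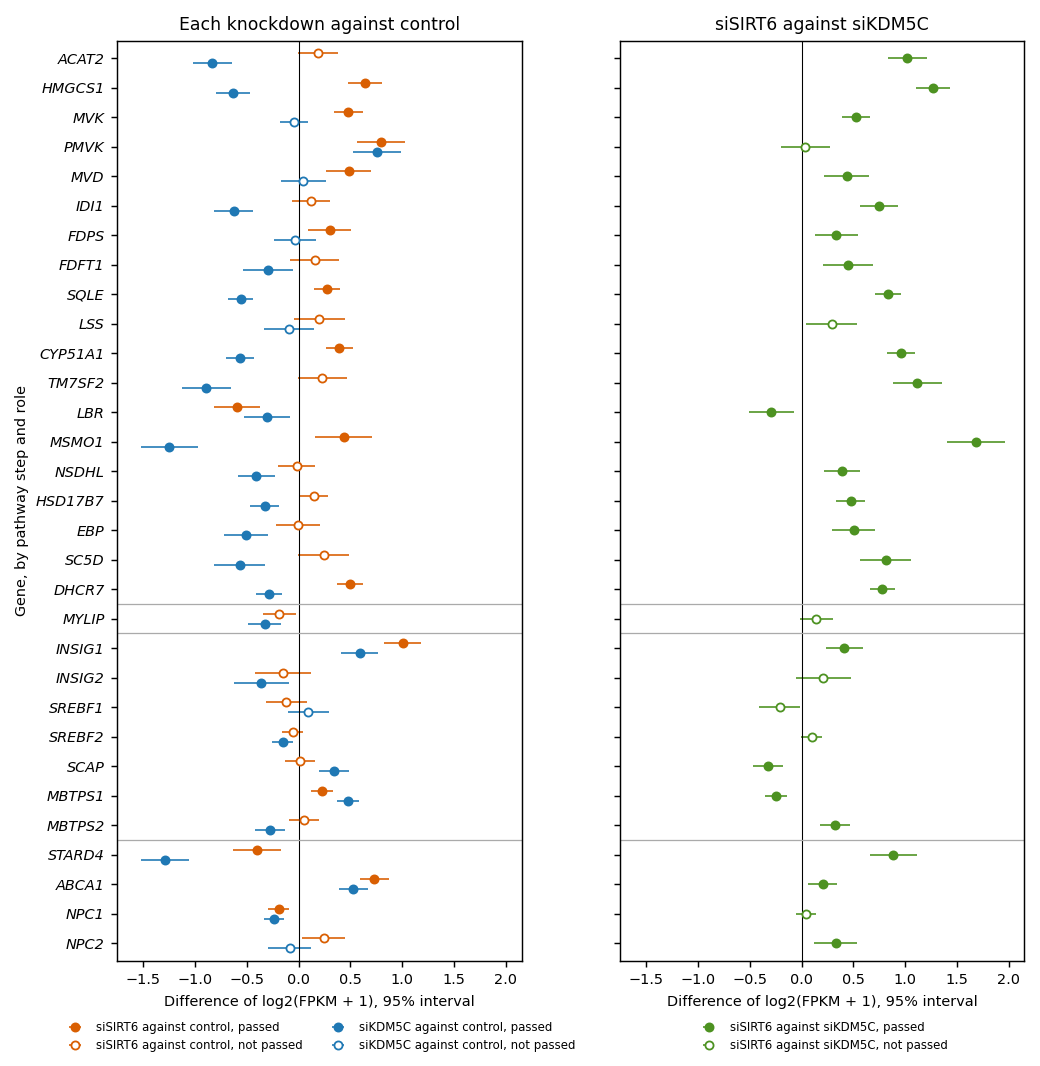
Difference in log2(FPKM + 1) of each of the 31 members against control (left panel) and between the knockdowns (right panel), with bars for the 95% interval of the limma fit and filled points where the adjusted p passed 0.05. In the left panel most enzymes sit right of 0 for siSIRT6 and left of 0 for siKDM5C, while PMVK, INSIG1, MBTPS1 and ABCA1 sit right of 0 with filled points for both.

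MYLIP is a sterol-induced ubiquitin ligase that marks lipoprotein receptors for degradation. It was 4.97, 4.42 and 4.08 FPKM in the control libraries, 3.61, 3.99 and 3.86 in the siSIRT6 libraries and 3.22, 3.52 and 3.37 in the siKDM5C libraries. All 6 knockdown libraries were below the controls. It fell to 0.751 times control after KDM5C knockdown (-0.33, adjusted p = 0.00464). After SIRT6 knockdown the difference was -0.19 (adjusted p = 0.0535), and it passed without control replicate 3 (-0.24, adjusted p = 0.0256) and with protein-coding genes only (0.0391).

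Of the 7 genes of SREBP control, 2 rose and 5 did not pass after SIRT6 knockdown, and 3 rose, 3 fell and 1 did not pass after KDM5C knockdown. The shares that passed were 28.6% and 85.7%, beside 50.8% and 51.5% of all tested genes. The transcript of SREBP-2, the form that mainly drives cholesterol genes, differed by small amounts. SREBF2 (ENSG00000198911, chr22:41833079-41907308, plus strand) was 25.3, 24.7 and 25.2 FPKM in the control libraries, 23.7, 23.6 and 24.8 in the siSIRT6 libraries and 21.9, 22.0 and 23.2 in the siKDM5C libraries. The siKDM5C libraries were all below the controls, and siSIRT6 overlapped them. SREBF2 fell to 0.894 times control after KDM5C knockdown (-0.16, SE 0.05, adjusted p = 0.0191), a call lost without control replicate 1 (0.0648) or siKDM5C replicate 1 (0.0554). After SIRT6 knockdown the difference was -0.06 (95% interval -0.16 to 0.05, adjusted p = 0.327), and it passed as lower after removal of the trend with GC and length (-0.11, adjusted p = 0.0283). Between the knockdowns it was 0.10 (adjusted p = 0.114) and passed without siKDM5C replicate 3 (0.0464), with that trend removed (0.0181) or with quantile normalization (0.0447).

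SREBF1, whose product mainly drives fatty acid genes, was 18.0 to 19.8 FPKM in the control, 17.2 to 17.6 in the siSIRT6 and 17.7 to 23.2 in the siKDM5C libraries. As reported, it passed in none of the 3 comparisons (-0.12, adjusted p = 0.285 for siSIRT6, 0.09 and 0.40 for siKDM5C, -0.21 and 0.0856 between them). The last passed without siKDM5C replicate 1 (-0.31, adjusted p = 0.0113). After removal of the trend with GC and length, SREBF1 passed as lower in siSIRT6 than in control (-0.21, adjusted p = 0.0221) and than in siKDM5C (-0.22, adjusted p = 0.0214). The FPKM values sum the isoforms of each gene, so the separate SREBP-1 forms were not resolved.

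INSIG1 (ENSG00000186480, chr7:155297776-155310235, plus strand), itself a classical SREBP target, rose in both knockdowns. It was 23.5, 23.8 and 21.2 FPKM in the control libraries, 46.3, 46.3 and 47.6 in the siSIRT6 libraries and 32.7, 39.2 and 32.8 in the siKDM5C libraries. All knockdown libraries were above all controls, and siSIRT6 was above siKDM5C. INSIG1 rose 2.05-fold after SIRT6 knockdown (1.00, SE 0.08, adjusted p = 1.83e-05) and 1.53-fold after KDM5C knockdown (0.59, SE 0.08, adjusted p = 3.48e-04), and the direct difference was 0.41 (adjusted p = 0.00346). After KDM5C knockdown its direction was thus opposite to that of HMGCS1, SQLE and MSMO1, which are also known SREBP targets.

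INSIG2, its relative that does not depend on SREBP in the same way, was 5.58 to 6.28 FPKM in the control, 5.19 to 5.26 in the siSIRT6 and 3.39 to 5.32 in the siKDM5C libraries. Its fall after KDM5C knockdown (-0.36, adjusted p = 0.0304) was lost without control replicate 2 (0.0686) or 3 (0.0856), and after removal of the trend with GC and length (-0.17, adjusted p = 0.230). Without siKDM5C replicate 3 it was -0.22 (adjusted p = 0.0348). After SIRT6 knockdown the difference was -0.15 (adjusted p = 0.313), and it passed with only the groups compared (0.0406). Between the knockdowns it was 0.21 (adjusted p = 0.186) and passed without siKDM5C replicate 1 (0.33, 0.0413). The ratio of INSIG1 to INSIG2 was 3.88 ± 0.443 in the control, 8.95 ± 0.172 in the siSIRT6 and 8.12 ± 1.80 in the siKDM5C libraries, with all 6 knockdown values (6.16 to 9.68) above the controls (3.38 to 4.21).

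The escort and the 2 proteases had different patterns. SCAP was 9.11 to 10.1 FPKM in the control, 9.22 to 9.99 in the siSIRT6 and 11.6 to 13.2 in the siKDM5C libraries, and rose after KDM5C knockdown (0.34, adjusted p = 0.00218) but did not pass after SIRT6 knockdown (0.02, adjusted p = 0.857). MBTPS1, the gene of the first protease, rose in both knockdowns from 10.6 ± 0.314 FPKM, to 12.6 ± 0.185 after siSIRT6 (0.23, adjusted p = 0.00365) and 15.2 ± 0.540 after siKDM5C (0.48, adjusted p = 6.42e-05). MBTPS2, the gene of the protease that makes the later cut, fell after KDM5C knockdown from 3.12 ± 0.257 to 2.40 ± 0.162 FPKM (-0.27, adjusted p = 0.00684) and did not pass after SIRT6 knockdown (0.05, adjusted p = 0.527). With the GC and length trend taken out its fall was -0.14 (adjusted p = 0.0408). YY2 on the same strand shares 12.2% of MBTPS2 exon bases at 0.314 to 1.49 FPKM. SCAP and MBTPS1 were lower in siSIRT6 than in siKDM5C (-0.33, adjusted p = 0.00400, and -0.25, adjusted p = 0.00341) and MBTPS2 was higher (0.33, adjusted p = 0.00416).

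**Figure D3:**
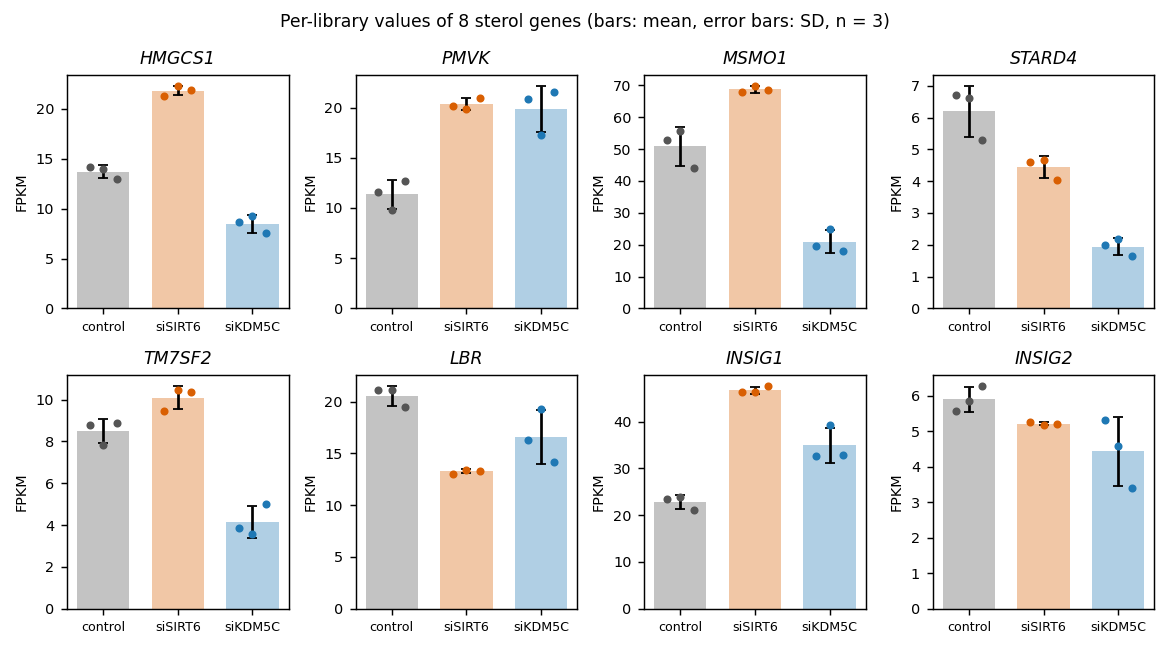
FPKM of 8 members in each library, 1 panel per gene with its own axis from 0, where points are libraries, bars group means and error bars the SD (n = 3). In HMGCS1 and MSMO1 the control points lie between the knockdowns, in PMVK and INSIG1 both knockdowns lie above the control, and in LBR and STARD4 both lie below it.

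Of the 4 genes of sterol transport, 1 rose, 2 fell and 1 did not pass in each knockdown. That was 75% passing in each, beside 50.8% and 51.5% of all tested genes. STARD4 (ENSG00000164211, chr5:111496033-111512590, minus strand) encodes a soluble carrier that moves cholesterol between membranes. It was 6.72, 6.60 and 5.28 FPKM in the control libraries, 4.59, 4.67 and 4.04 in the siSIRT6 libraries and 2.01, 2.17 and 1.65 in the siKDM5C libraries. The groups were separate, in that order from high to low. STARD4 fell to 0.715 times control after SIRT6 knockdown (-0.40, SE 0.10, adjusted p = 0.0103) and to 0.313 times control after KDM5C knockdown (-1.29, SE 0.10, adjusted p = 2.00e-05), the largest fall of the 31 members. It was 2.28 times higher in siSIRT6 than in siKDM5C (0.89, adjusted p = 2.60e-04). STARD4 is an SREBP target too, and after SIRT6 knockdown it went the opposite way to HMGCS1 and INSIG1.

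ABCA1 (ENSG00000165029, chr9:104781002-104928237, minus strand), the pump that loads cholesterol onto lipid-poor apolipoproteins and a target of the oxysterol receptors, rose in both. It was 1.27, 1.22 and 1.10 FPKM in the control libraries, 2.70, 2.74 and 2.51 in the siSIRT6 libraries and 2.05, 2.26 and 2.19 in the siKDM5C libraries. All knockdown libraries were above all controls. It rose 2.21-fold after SIRT6 knockdown (0.73, SE 0.06, adjusted p = 2.97e-05) and 1.81-fold after KDM5C knockdown (0.53, SE 0.06, adjusted p = 1.80e-04). On recovered reads, with no pseudocount of 1 FPKM, these differences were 1.18 and 0.87. The direct difference of 0.20 (adjusted p = 0.0283) was lost without siSIRT6 replicate 1 (0.0888) or 2 (0.10) or siKDM5C replicate 1 (0.0900).

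NPC1 and NPC2 pass cholesterol out of late endosomes and lysosomes. NPC1, the membrane protein, was 14.0 to 14.4 FPKM in the control, 12.1 to 12.5 in the siSIRT6 and 11.5 to 12.2 in the siKDM5C libraries, and fell in both knockdowns (-0.19, adjusted p = 0.00612, and -0.24, adjusted p = 0.00205). NPC2, the soluble partner, was 23.7 to 24.3 FPKM in the control, 26.2 to 30.3 in the siSIRT6 and 19.5 to 25.5 in the siKDM5C libraries. Its difference after SIRT6 knockdown (0.24, adjusted p = 0.0564) passed in 11 of 19 alternatives, among them those without siSIRT6 replicate 1 (0.0470) and siKDM5C replicate 2 (0.0163) or 3 (0.0234). NPC2 was higher in siSIRT6 than in siKDM5C (0.33, adjusted p = 0.0215), a call lost without siSIRT6 replicate 2 (0.0670) or 3 (0.0782).

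Over all 31 members, 5 rose in siSIRT6 and fell in siKDM5C, 4 rose in both (PMVK, INSIG1, MBTPS1 and ABCA1) and 3 fell in both (LBR, STARD4 and NPC1). For 12 others only the fall after KDM5C knockdown passed, and for 3 (MVK, MVD and FDPS) only the rise after SIRT6 knockdown did. For SCAP only the rise after KDM5C knockdown passed, and LSS, SREBF1 and NPC2 passed in neither. The share of all tested genes with each pair of calls was not counted, so these counts cannot be read against a background. Singly, 50.8% of all tested genes passed after SIRT6 knockdown and 51.5% after KDM5C knockdown, against shared controls. The direct comparison, not these pairs of calls, tests whether the knockdowns differ. Within groups, the median coefficient of variation of the members was 6.20% in the control, 2.22% in the siSIRT6 and 11.5% in the siKDM5C libraries. Control replicate 3 was the highest library of its group for 12 members, with a median exon GC content of 54.6%, and the lowest for 17, at 42.4%. The same direction held in siKDM5C replicate 3, which had the widest split, at 59.7% where it was highest (10 members) and 41.3% where it was lowest (12 members). The split ran the other way in control replicate 2 (42.6% and 57.2%) and siKDM5C replicate 2 (41.6% and 54.6%). In the other 5 libraries the 2 medians were within the range of 44.5% to 55.7%. After removal of each library's trend with GC and length, an alternative added after seeing the data, 5 members in place of 3 fell after SIRT6 knockdown, the added ones being SREBF1 and SREBF2. In the same alternative 17 members in place of 12 rose, the added ones being IDI1, TM7SF2, HSD17B7, SC5D and NPC2. Of the 15920 genes tested in it, 4428 rose and 4646 fell, in place of 3861 and 4333 of 16135.

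The lists of related genes were read in the same fits. Of all tested genes 50.8% passed after SIRT6 knockdown, 51.5% after KDM5C knockdown and 39.9% between the knockdowns. Of 13 SREBP-1 lipogenic targets tested, 8 rose, 2 fell and 3 did not pass after SIRT6 knockdown, 1 rose, 8 fell and 4 did not pass after KDM5C knockdown, and 8 were higher and 0 lower in siSIRT6 than in siKDM5C. Their medians were 0.15, -0.33 and 0.44, and 76.9%, 69.2% and 61.5% of them passed. SCD, the stearoyl-CoA desaturase, was 539 ± 27.0 FPKM in the control, 720 ± 9.90 in the siSIRT6 and 304 ± 14.0 in the siKDM5C libraries (direct log2 difference 1.24, adjusted p = 2.96e-06). FADS1, a fatty acid desaturase, went from 29.1 ± 0.428 to 19.6 ± 0.128 FPKM after KDM5C knockdown (-0.54, adjusted p = 1.34e-05), and FADS2, the other, from 34.2 ± 0.439 to 46.8 ± 1.07 after SIRT6 knockdown (0.44, adjusted p = 1.43e-04). ME1, the cytosolic malic enzyme that supplies NADPH, rose in both, from 13.6 ± 0.953 to 26.6 ± 0.614 (0.92, adjusted p = 3.07e-05) and to 23.8 ± 2.48 FPKM (0.76, adjusted p = 8.60e-05).

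In the isoprenoid branch, which draws farnesyl and geranylgeranyl units off the pathway, 5 of 14 genes rose and 3 fell after SIRT6 knockdown and 3 rose and 4 fell after KDM5C knockdown. The shares that passed, 57.1% and 50%, were near the 50.8% and 51.5% of all tested genes. ICMT, which methylates prenylated proteins, went from 11.2 ± 0.447 FPKM to 22.7 ± 0.501 (0.96, adjusted p = 1.49e-06) and to 27.5 ± 0.182 (1.23, adjusted p = 5.22e-07). The 2 subunits of the enzyme that makes the tail of coenzyme Q parted after SIRT6 knockdown, with PDSS2 rising from 3.23 ± 0.397 to 7.25 ± 0.263 FPKM (0.97, adjusted p = 2.26e-05) and PDSS1 falling from 5.05 ± 0.787 to 2.62 ± 0.260 (-0.74, adjusted p = 3.44e-04). GGPS1, the synthase of geranylgeranyl diphosphate, was 13.9 ± 0.398 FPKM in siSIRT6 and 9.15 ± 1.25 in siKDM5C (0.56, adjusted p = 0.00133).

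Of 12 genes of sterol sensing and of protein turnover in the endoplasmic reticulum, 3 rose and 4 fell after SIRT6 knockdown and 2 rose and 3 fell after KDM5C knockdown. The shares that passed were 58.3% and 41.7%, beside 50.8% and 51.5% of all tested genes. FAF2, a membrane recruiter of VCP, fell in both, from 42.0 ± 1.42 FPKM to 31.9 ± 0.429 (-0.39, adjusted p = 2.86e-04) and 30.7 ± 1.29 (-0.44, adjusted p = 1.34e-04). SOAT1, which esterifies cholesterol, fell from 13.5 ± 0.168 to 9.24 ± 0.809 FPKM after KDM5C knockdown (-0.51, adjusted p = 2.93e-04). It fell after SIRT6 knockdown too (-0.30, adjusted p = 0.00500). Of 12 genes of oxysterol receptors and efflux only 7 passed the filter, with 3 rising and 2 falling after SIRT6 knockdown and 3 rising and 0 falling after KDM5C knockdown. Of the 7, 71.4% and 42.9% passed the test, beside 50.8% and 51.5% of all tested genes. NCEH1, a cholesteryl ester hydrolase, was 91.4 ± 4.87 FPKM in the control, 45.7 ± 0.388 in the siSIRT6 (-0.98, adjusted p = 1.34e-05) and 87.0 ± 8.15 in the siKDM5C libraries. RXRB, a nuclear receptor that pairs with the oxysterol receptors, rose from 3.14 ± 0.268 FPKM to 5.06 ± 0.379 (0.55, adjusted p = 3.27e-04) and 4.06 ± 0.233 (0.29, adjusted p = 0.00948).

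Of 17 further genes of sterol uptake and transport 15 were tested, and 6 rose and 4 fell after SIRT6 knockdown, while 4 rose and 3 fell after KDM5C knockdown. These were 66.7% and 46.7% of those tested, beside 50.8% and 51.5% of all tested genes. OSBP, which exchanges sterol for a phosphoinositide between membranes, rose in both, from 11.7 ± 0.356 FPKM to 16.8 ± 0.239 (0.49, adjusted p = 1.09e-04) and 18.8 ± 1.02 (0.64, adjusted p = 2.46e-05). LRP8, a lipoprotein receptor, fell from 4.52 ± 0.312 to 2.38 ± 0.0827 FPKM after KDM5C knockdown (-0.70, adjusted p = 3.52e-05). It fell after SIRT6 knockdown too (-0.22, adjusted p = 0.0156). CAV1, the coat protein of caveolae, rose from 81.0 ± 6.47 to 119 ± 0.892 FPKM after SIRT6 knockdown (0.55, adjusted p = 7.52e-04). In the isoprenoid, sensing, oxysterol and transport lists the medians lay between -0.14 and 0.17 on the log2 scale in all 3 comparisons.

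**Figure D4:**
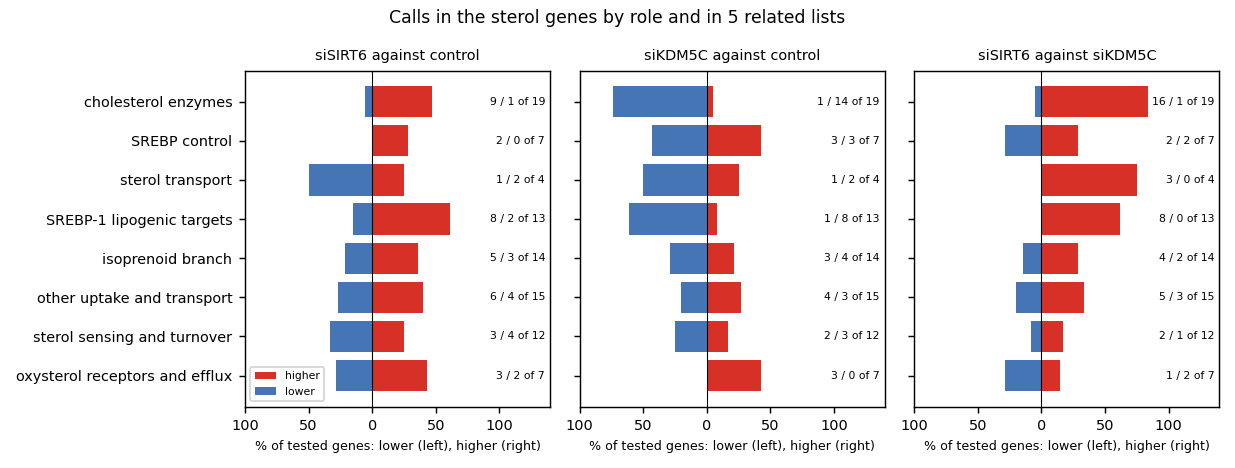
Percent of tested genes higher (right) and lower (left) at an adjusted p of 0.05 in each comparison, for 3 roles of the members and the 5 lists of related genes, with the counts higher and lower of those tested at the right. The enzymes stand at 73.7% lower after KDM5C knockdown and 84.2% higher in siSIRT6 than in siKDM5C, and the SREBP-1 lipogenic targets at 61.5% in each. Of all tested genes 25.9% were lower and 18.6% higher in those comparisons.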

How the data were processed

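The 9 PANC-1 libraries were made from Trizol-extracted RNA with a stranded mRNA kit, per the labels' protocols. The deposited files hold 1 FPKM value per gene and library, made by the authors without pooling. The submitters' processing notes name Trimmomatic, HISAT2, Cufflinks, HTSeq and hg38, without versions or roles. No annotation or strand setting was given in the sources used here. The unit was read from the values, which are whole multiples of 1 step per gene and library. Recovered reads (tolerance 0.01 of a read) were whole at the annotated exon length for 58.9% of genes. Another length was searched for 15092 more, which brought the share to 100.0%. The FPKM steps gave the depths, and the recovered reads 1 alternative fit.

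Symbols came from a gene name table and coordinates from GENCODE release 29 (GRCh38). The 16135 genes that reached 1 FPKM in 3 or more libraries entered the test on log2(FPKM + 1), with no further scaling, by limma 3.58.1 with a trend in R 4.3.3, in 1 fit of 9 libraries with a term per group. Scripts were tested on simulated data. The members, the related lists and the rule for named genes (all members, and up to 3 genes with the smallest adjusted p per list and comparison) were chosen with earlier results of these data known. Ratios between members, genes shown by sequence and overlapping genes were chosen after their values were seen. Replicate numbers did not pair the samples. Beside the reported fit, 19 alternatives were run, on the pseudocount, the filter, the scaling, the groups in the fit, the replicate block, protein-coding genes alone, recovered reads with limma-voom, each library left out in turn, and GC content with length.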

Additional observations from a re-analysis of the deposited data

How the results depend on the processing

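No member difference that passed, in the reported fit or in an alternative, changed sign in any of the 19 alternatives, of which the filter at 5 FPKM tested 24 of the 31 members. Over these alternatives 1641 member results kept their side of the threshold, 52 lost it and 53 gained it. Leaving out 1 library at a time gave 14 to 20 members called in siSIRT6 against control, 22 to 24 in siKDM5C against control and 21 to 25 in siSIRT6 against siKDM5C. With only the groups compared in the fit these counts were 22, 21 and 22. Counts over all genes shifted between fits too. In siSIRT6 against control, 4039 genes were higher and 4570 lower without siKDM5C replicate 3, which gave 20 members. Without siSIRT6 replicate 3, which gave 14 members, 3191 genes were higher and 3507 lower. The single count that moved by over 1.5 times was that of members lower in siSIRT6 against control, which was 5 in place of 3 with the GC and length trend removed, an alternative chosen after seeing the data. With that trend removed, 17 members in place of 12 were higher in siSIRT6 against control. Over all genes, 4428 of 15920 were higher and 4646 lower there, in place of 3861 and 4333 of 16135. With the replicate number as a block, 17, 24 and 25 members were called. Over all genes, 3794 were higher and 4336 lower in siSIRT6 against control with the block. The block brought LSS (adjusted p = 0.0129) and NPC2 (0.0474) past the threshold in siSIRT6 against control and LSS in siSIRT6 against siKDM5C (0.00436), and took FDFT1 in siKDM5C against control out of it (0.0758); LSS was highest in replicate 2 and lowest in replicate 3 of every group. Correlations of deviations ran from -0.229 to 0.252 between samples with the same number. Between different numbers they ran from -0.353 (control replicate 3 with siKDM5C replicate 2) to 0.426 (control replicate 3 with siKDM5C replicate 1). The same-number values lay within that wider range, so the numbers were not used as pairs. Depth limits FDFT1 most, with 135 to 351 recovered reads per library; counting error is larger there than for ACAT2, with 1870 to 6284.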
